A study of Mus musculus with 9 samples.

Results

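Genes of recruited monocytes and of tissue macrophages, 10 in all, were followed in mouse lung after lipopolysaccharide (LPS). All 10 were found by symbol in a count table of 21930 protein-coding genes and passed the filter on low counts that left 15636 genes for testing. They were chosen by name, as 3 classes, with earlier results of these data known. The monocyte genes were Ccr2, Ly6c2 and Cx3cr1, the C1q macrophage genes were C1qa, C1qb, C1qc and Ms4a7, and the lipid-associated macrophage genes were Trem2, Spp1 and Gpnmb.

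The study sequenced 9 lung libraries from male C57BL/6 mice aged 6 to 8 weeks, in 3 groups of 3. The labels call them replicates without saying that each is a separate mouse. The p-values therefore weigh group differences against the spread between these libraries, which may not be the spread between mice. The LPS plus RSBD mice had received LPS into the trachea at 2 mg/kg and then, starting on the following day, Renshen Baidu Powder (RSBD), a Chinese herbal formula, given as a decoction by gavage each day. The LPS mice had received the same LPS and then vehicle by gavage. The control mice had received sterile saline in the trachea in place of LPS. All mice were anesthetized with tribromoethanol for the instillation, and lungs were taken on day 5. The labels give 5 days of gavage starting the day after LPS, so the number of doses received before collection is unclear. No group with RSBD and without LPS was analysed here, and the RSBD dose is not given in the sources used here.

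Circulating monocytes leave the bone marrow under the control of the chemokine receptor Ccr2, carry the surface protein Ly6C, and enter injured tissue, where they can become macrophages. Cx3cr1 is the receptor for fractalkine, which is highest on patrolling monocytes and is also carried by resident macrophages and by some natural killer (NK) and T cells. Interstitial macrophages of the lung are known for making the 3 chains of C1q, the molecule that starts the classical complement pathway, while lipid-associated macrophages, described in fat, fibrotic lung and other injured tissue, are known for Trem2, Spp1 and Gpnmb.

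Libraries held 26959662 to 36113905 counts. Lung markers were present in every library, and the summed level of Sftpc, Sftpb, Ager, Scgb1a1, Cldn5 and Foxj1 was 32496 to 41247 CPM (counts scaled to library size with TMM factors) in LPS plus RSBD, 25519 to 40088 CPM in LPS and 33562 to 48069 CPM in control libraries. The controls stood apart in their reads of chromosome Y, 7511 to 10918 in LPS plus RSBD, 8278 to 8839 in LPS and 6 to 9 in control libraries, although every mouse is labelled male. Every comparison with control below is therefore also one between libraries with and without such reads, and these factors cannot be told apart. In bulk tissue, fewer cells of a type and less RNA per cell cannot be told apart either.

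Promoters are shown for Ly6c2, Ly6c1, C1qc, C1qb and Spp1, and whether these sequences bear on the levels of the genes was not tested. Ly6c2 has a close copy on chromosome 15, Ly6c1, which endothelium is known to express, and their longest coding transcripts were 97.6% identical over 822 aligned bases. C1qb and C1qc belong to a gene cluster of chromosome 4 and varied together, and Spp1 varied unlike any other of the 10 genes. The 250 bases before the start site furthest upstream are given from RefSeq (GRCm38.p6), where 9 of the 10 symbols matched, C1qa being the one unmatched. Capitals mark GAGGAAGT, a core bound by PU.1, the main transcription factor of myeloid cells, on either strand.
Ly6c2 (chr15:75111972-75112221, minus strand): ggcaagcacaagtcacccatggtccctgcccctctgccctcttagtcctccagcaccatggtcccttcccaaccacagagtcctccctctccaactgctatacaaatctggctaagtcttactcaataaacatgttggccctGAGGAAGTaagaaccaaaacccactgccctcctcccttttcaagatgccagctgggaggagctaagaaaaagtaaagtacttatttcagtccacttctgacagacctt
Ly6c1 (chr15:75048838-75049087, minus strand): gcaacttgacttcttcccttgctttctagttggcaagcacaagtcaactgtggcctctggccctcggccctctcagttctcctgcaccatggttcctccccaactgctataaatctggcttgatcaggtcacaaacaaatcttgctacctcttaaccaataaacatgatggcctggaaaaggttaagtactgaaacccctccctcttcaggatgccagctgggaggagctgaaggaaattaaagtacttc
C1qc (chr4:136892915-136893164, minus strand): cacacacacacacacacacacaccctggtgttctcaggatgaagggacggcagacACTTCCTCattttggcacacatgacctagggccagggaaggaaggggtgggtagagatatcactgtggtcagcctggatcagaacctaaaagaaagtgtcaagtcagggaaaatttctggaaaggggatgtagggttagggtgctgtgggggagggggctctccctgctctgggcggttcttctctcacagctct
C1qb (chr4:136886201-136886450, minus strand): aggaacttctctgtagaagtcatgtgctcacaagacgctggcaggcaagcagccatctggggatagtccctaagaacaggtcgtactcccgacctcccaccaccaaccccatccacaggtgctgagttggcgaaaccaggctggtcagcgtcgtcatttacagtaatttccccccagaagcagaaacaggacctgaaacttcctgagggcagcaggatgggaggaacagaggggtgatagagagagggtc
Spp1 (chr5:104434861-104435110, plus strand): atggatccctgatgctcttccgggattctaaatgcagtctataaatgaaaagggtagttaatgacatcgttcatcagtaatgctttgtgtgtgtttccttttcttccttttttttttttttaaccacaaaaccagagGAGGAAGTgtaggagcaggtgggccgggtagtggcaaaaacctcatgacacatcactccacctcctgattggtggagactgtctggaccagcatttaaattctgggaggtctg
The run GAGGAAGT stood at 101 to 108 bases before the start in Ly6c2, at 188 to 195 bases on the opposite strand in C1qc, and at 106 to 113 bases in Spp1. It was not in the windows of Ly6c1, C1qb, Ccr2, Cx3cr1, Ms4a7, Trem2 and Gpnmb, and 2.44% of 32851 promoter windows of that length held it. The windows follow RefSeq starts. That of Cx3cr1 lay inside the gene span of the count table, as did most of that of Ccr2 and part of that of C1qc. For these genes the bases upstream of that span were not searched or only in part. The windows of Ly6c2 and Ly6c1 were 75.9% identical over 216 aligned bases.

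On day 5 the classical monocyte genes Ccr2 and Ly6c2 were the members furthest above control in LPS lungs, each about 2.5-fold, and Trem2 was 2.16-fold higher. The 3 C1q chains and Ms4a7 did not pass the test in any comparison, and Spp1 had its highest group mean in control lungs. In LPS against control, 3 of the 10 members rose and none fell, or 30% as against 17.4% of all genes called by edgeR's quasi-likelihood test at an adjusted p under 0.05 (8.79% higher and 8.63% lower). The groups did not overlap for 4 members, all higher in LPS, beside 38% of all genes without overlap and 18.6% higher without overlap. The median log2 fold change was 0.43 over the members and -0.01 over all genes tested. As the members were chosen with earlier results of these data known, these shares and medians are descriptions and not an independent result. For LPS plus RSBD against LPS, 0 members and 0 of 15636 genes were called (0%), with 2 members and 1473 genes at an unadjusted p under 0.05 in edgeR, and DESeq2 called 0 members and 153 genes. Against control, LPS plus RSBD gave 0 members past the threshold in edgeR, beside 3.7% of all genes (1.89% higher and 1.8% lower), with 3 members and 3555 genes at an unadjusted p under 0.05. DESeq2 called 2 members, Ccr2 and Ly6c2, and 1699 genes there. LPS plus RSBD and control did not overlap for 3 of the 10 members, 2 higher and 1 lower. Beside this, 30.4% of all genes did not overlap there, 15.4% higher and 15% lower, so the share of members was near that of all genes. The comparisons share libraries, so a high or low group of 3 enters more than one of them.

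**Figure D1:**
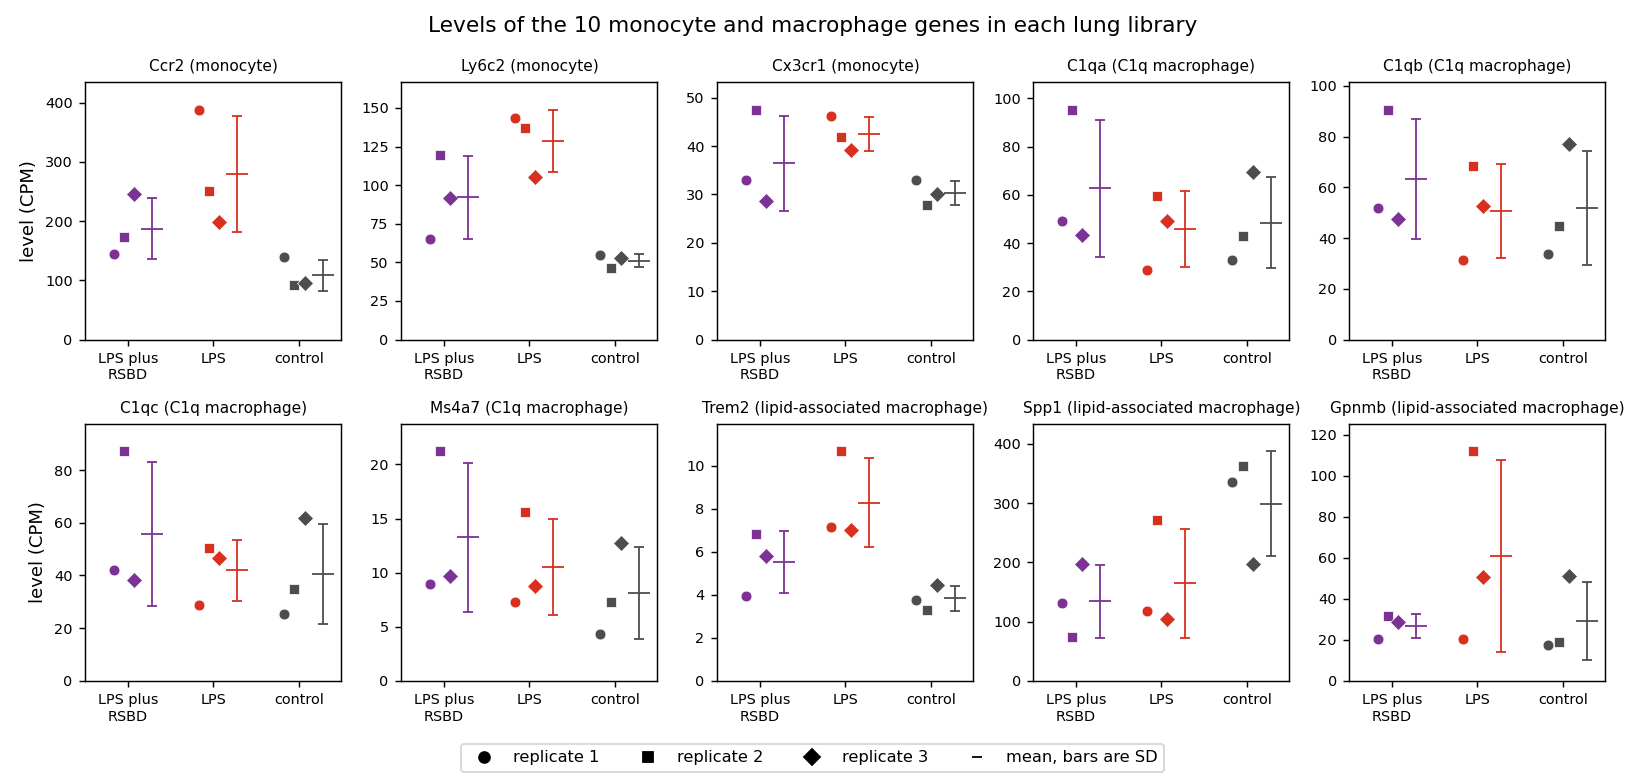
Level of each of the 10 genes in CPM (y axis, from 0) in the 3 libraries of LPS plus RSBD, LPS and control lungs; points are libraries, the short line is the mean and the bar the SD. Ly6c2 in the 3 LPS libraries sat at 105 to 143 CPM, above 46.3 to 54.4 CPM in control libraries, while the C1q chains overlapped between all groups.

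Ccr2 (ENSMUSG00000049103, chromosome 9, 124101950 to 124113557 on mm10) is the receptor for Ccl2 and related chemokines that lets monocytes leave the marrow. It measured 144, 173 and 245 CPM in LPS plus RSBD, 388, 251 and 199 CPM in LPS and 139, 92.0 and 95.2 CPM in control libraries 1 to 3. Every LPS library lay above every control library, the LPS plus RSBD libraries also lay above all controls, though the lowest did so by a narrow margin, and the LPS plus RSBD range overlapped the lower end of the LPS range. The log2 fold change was 1.36 ± 0.28 (SE) in LPS against control (edgeR adjusted p = 0.0157). It was -0.58 ± 0.28 in LPS plus RSBD against LPS (adjusted p = 0.572), with a 95% interval from -1.21 to 0.06, and 0.79 ± 0.28 in LPS plus RSBD against control (edgeR adjusted p = 0.142, DESeq2 adjusted p = 0.0309). The edgeR call against control was lost without control 2 (adjusted p = 0.0579) or control 3 (adjusted p = 0.0696).

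Ly6c2 (ENSMUSG00000022584, chromosome 15, 75108158 to 75111970) encodes a Ly6C surface protein that marks classical, inflammatory monocytes. It measured 65.3, 119 and 91.5 CPM in LPS plus RSBD, 143, 137 and 105 CPM in LPS and 54.4, 46.3 and 52.7 CPM in control libraries. The controls were close together and below all 6 other libraries, and LPS plus RSBD 2 was the one library of its group within the LPS range. Ly6c2 rose by 1.33 ± 0.20 on the log2 scale in LPS against control (edgeR adjusted p = 0.00576), a call kept when any library was left out (highest adjusted p = 0.0285). The change was -0.48 ± 0.20 in LPS plus RSBD against LPS (edgeR adjusted p = 0.509, interval -0.93 to -0.03, which is not adjusted for the number of genes). Against control, LPS plus RSBD gave 0.85 ± 0.20, next to the threshold in edgeR (adjusted p = 0.0522) and past it in DESeq2 (adjusted p = 0.00149) or without LPS plus RSBD 1 (edgeR adjusted p = 0.0238).

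The close copy Ly6c1 gave other values. Ly6c1 averaged 349 CPM in LPS plus RSBD, 445 CPM in LPS and 446 CPM in control libraries, with a log2 fold change of -0.0024 ± 0.26 in LPS against control (edgeR adjusted p = 0.996). The ratio of Ly6c1 to Ly6c2 counts was 2.29 to 5.68 in LPS plus RSBD, 3.13 to 3.83 in LPS and 7.48 to 9.31 in control libraries. Of the distinct runs of 150 bases, the read length, in coding transcripts of Ly6c2, 5.44% also occurred in another gene, which was Ly6c1, and 31.2% of runs of 50 bases were shared with Ly6c1, Ly6a or I830127L07Rik, so the assignment of part of the Ly6c2 reads is uncertain. With the counts of both genes summed, a choice made after the data were seen, the sum was mostly Ly6c1 and the log2 fold change in LPS against control was 0.21 (edgeR adjusted p = 0.553).

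Cx3cr1 (ENSMUSG00000052336, chromosome 9, 119901616 to 120069879) measured 33.1, 47.5 and 28.7 CPM in LPS plus RSBD, 46.1, 41.9 and 39.1 CPM in LPS and 32.9, 27.9 and 30.1 CPM in control libraries. The LPS libraries lay above all controls, and LPS plus RSBD libraries 1 and 3 lay close to or within the control range. Its log2 fold change in LPS against control was 0.49 ± 0.17 (edgeR adjusted p = 0.0707), smaller than those of Ccr2 and Ly6c2 in estimate, and it was called in DESeq2 (adjusted p = 0.0365), with only both groups compared in the fit (edgeR adjusted p = 0.0223), without LPS plus RSBD 2 (0.0197) or without LPS plus RSBD 3 (0.0434). The changes were -0.22 ± 0.17 in LPS plus RSBD against LPS and 0.27 ± 0.17 in LPS plus RSBD against control (edgeR adjusted p = 0.726 and 0.378). NK cells also carry Cx3cr1, and the summed level of 8 NK genes was 83.4 to 144 CPM in LPS plus RSBD, 69.6 to 92.2 CPM in LPS and 28.4 to 33.6 CPM in control libraries. Of the 8, 6 rose in LPS against control and 2 did not pass. Their part in the level of Cx3cr1 was not tested.

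**Figure D2:**
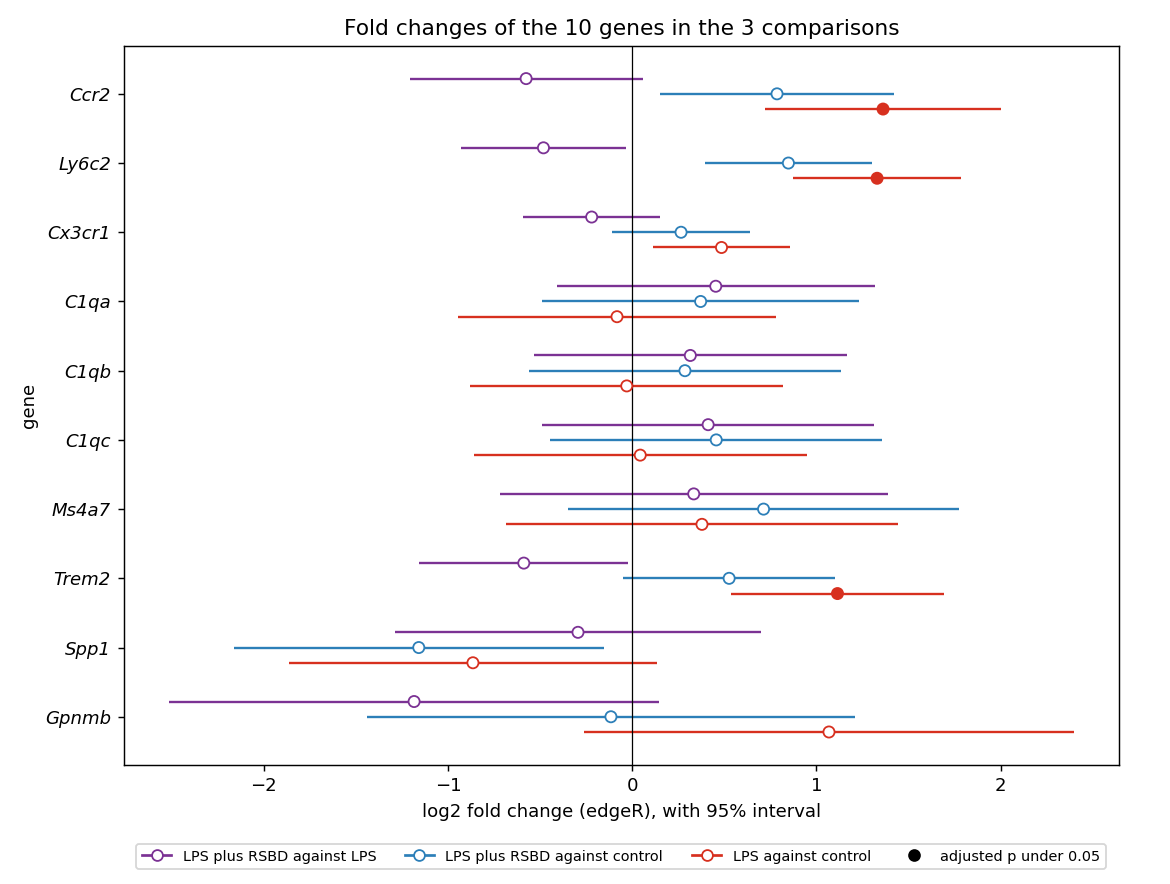
Log2 fold change of each gene (x axis) with its 95% interval from the edgeR fit, for LPS plus RSBD against LPS, LPS plus RSBD against control and LPS against control; filled points have an adjusted p under 0.05. Filled points are Ccr2, Ly6c2 and Trem2 in LPS against control, and the intervals of the C1q chains span 0 in all comparisons.

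C1q macrophage genes were spread as widely within groups as between them. C1qa, the A chain (ENSMUSG00000036887, chromosome 4, 136895917 to 136898803), measured 49.3, 95.2 and 43.4 CPM in LPS plus RSBD, 28.6, 59.5 and 49.0 CPM in LPS and 32.8, 43.0 and 69.4 CPM in control libraries. The highest library was LPS plus RSBD 2 and the lowest LPS 1, and all groups overlapped. C1qb, the B chain (136880129 to 136886187), measured 51.9, 90.5 and 47.5 CPM in LPS plus RSBD, 31.4, 68.3 and 52.8 CPM in LPS and 33.9, 44.8 and 77.0 CPM in control libraries. C1qc, the C chain (136889804 to 136893065), measured 42.0, 87.2 and 38.2 CPM in LPS plus RSBD, 28.6, 50.5 and 46.5 CPM in LPS and 25.4, 34.7 and 61.9 CPM in control libraries. The 3 chains had the same highest library.

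In LPS against control, the log2 fold changes of C1qa, C1qb and C1qc were -0.08 ± 0.38, -0.03 ± 0.38 and 0.04 ± 0.40 (edgeR adjusted p = 0.901, 0.965 and 0.952). The 95% interval of C1qa ran from -0.94 to 0.78, so a true change anywhere in that range, in either direction, was compatible with these libraries. The changes in LPS plus RSBD against LPS were 0.45 ± 0.38, 0.32 ± 0.38 and 0.41 ± 0.40 (edgeR adjusted p = 0.757, 0.849 and 0.802), and without LPS plus RSBD 2 they were 0.02, -0.03 and -0.06. Against control, LPS plus RSBD libraries gave 0.37 ± 0.38, 0.29 ± 0.38 and 0.46 ± 0.40 (edgeR adjusted p = 0.604, 0.690 and 0.534), which again changed sign without LPS plus RSBD 2 (-0.06, -0.06 and -0.02).

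Ms4a7 (ENSMUSG00000024672, chromosome 19, 11321039 to 11336146), a four-pass membrane protein gene of macrophages, had the low-abundance version of the same pattern. It measured 8.94, 21.2 and 9.71 CPM in LPS plus RSBD, 7.28, 15.6 and 8.72 CPM in LPS and 4.36, 7.26 and 12.7 CPM in control libraries, highest in LPS plus RSBD 2 like the C1q chains. The groups overlapped in all comparisons. Its log2 fold changes were 0.38 ± 0.47 in LPS against control, 0.33 ± 0.47 in LPS plus RSBD against LPS and 0.71 ± 0.47 in LPS plus RSBD against control (edgeR adjusted p = 0.607, 0.876 and 0.402). Without LPS plus RSBD 2 the changes in LPS plus RSBD were -0.18 against LPS and 0.20 against control, and without LPS 2 the change in LPS against control was -0.018.

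The ratios between the C1q transcripts varied less than their levels, across libraries in which C1qa ran from 28.6 to 95.2 CPM. Per length, the ratio of C1qa to C1qb in TPM was 0.96 to 1.10 in LPS plus RSBD, 0.91 to 0.97 in LPS and 0.94 to 1.01 in control libraries. The ratio of C1qc to C1qb was 0.73 to 0.87 in LPS plus RSBD, 0.67 to 0.83 in LPS and 0.68 to 0.73 in control libraries. Both ratios were highest in LPS plus RSBD 2, where the chains were also highest. The C1q molecule is built from equal numbers of the 3 chains.

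Among lipid-associated genes the estimates did not share a direction in LPS against control, though within the LPS group each gene was highest in LPS 2. Trem2 (ENSMUSG00000023992, chromosome 17, 48346401 to 48354147), a lipid-sensing receptor of macrophages, was the least abundant member. It measured 3.95, 6.84 and 5.78 CPM in LPS plus RSBD, 7.17, 10.7 and 7.01 CPM in LPS and 3.76, 3.28 and 4.45 CPM in control libraries, from 103 to 327 counts. In CPM all LPS libraries lay above all libraries of both other groups, by a narrow margin over LPS plus RSBD 2. In the deposited TPM LPS plus RSBD and LPS overlapped, with LPS plus RSBD 3 at 6.26 TPM and LPS 3 at 5.18 TPM. Trem2 rose by 1.11 ± 0.26 in LPS against control (edgeR adjusted p = 0.0206). The difference was -0.59 ± 0.26 in LPS plus RSBD against LPS (adjusted p = 0.518, interval -1.15 to -0.02, not adjusted for the number of genes) and 0.53 ± 0.26 in LPS plus RSBD against control (adjusted p = 0.259). Beside this, 12.6% of all genes did not overlap between LPS plus RSBD and LPS, 7.18% higher and 5.46% lower. The call in LPS against control was lost with limma on log2(TPM + 1) (adjusted p = 0.0512) or log2(TPM + 0.1) (adjusted p = 0.0524), without LPS 2 (edgeR adjusted p = 0.0852) or without control 2 (edgeR adjusted p = 0.0775).

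Spp1 (ENSMUSG00000029304, chromosome 5, 104435118 to 104441050) encodes osteopontin, a secreted ligand of integrins and Cd44 that epithelium and other cells make beside macrophages. It measured 132, 73.4 and 197 CPM in LPS plus RSBD, 118, 271 and 104 CPM in LPS and 336, 364 and 198 CPM in control libraries. The LPS plus RSBD libraries were all below the controls, by about 1 CPM for the closest pair, and LPS 2 lay within the control range. The log2 fold changes were -0.86 ± 0.44 in LPS against control, -0.29 ± 0.44 in LPS plus RSBD against LPS and -1.16 ± 0.44 in LPS plus RSBD against control (edgeR adjusted p = 0.200, 0.885 and 0.165), so none was called. The change in LPS plus RSBD against LPS was 0.27 without LPS 2 and 0.00044 without LPS plus RSBD 2. Of all genes, 30.4% did not overlap between LPS plus RSBD and control, 15.4% higher and 15% lower.

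Gpnmb (ENSMUSG00000029816, chromosome 6, 49036546 to 49070929), a lysosome-associated membrane glycoprotein gene of lipid-loaded macrophages, varied widely within the LPS and control groups. It measured 20.4, 31.8 and 28.6 CPM in LPS plus RSBD, 20.3, 112 and 50.7 CPM in LPS and 17.6, 18.9 and 51.0 CPM in control libraries. LPS 2 was far above every other library, and the groups overlapped. The log2 fold change in LPS against control was 1.07 ± 0.59 (edgeR adjusted p = 0.232). It was 0.29 without LPS 2, 1.48 without LPS 1 and 1.74 without control 3, and was not called in any of these (lowest edgeR adjusted p = 0.0979). For LPS plus RSBD against LPS it was -1.18 ± 0.59 (edgeR adjusted p = 0.579) and -0.40 without LPS 2, and in LPS plus RSBD against control -0.12 ± 0.59 (edgeR adjusted p = 0.929).

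Alveolar macrophages can also make Trem2, Spp1 and Gpnmb. The summed level of 14 alveolar macrophage genes was 513 to 680 CPM in LPS plus RSBD, 572 to 825 CPM in LPS and 403 to 407 CPM in control libraries, with none at 0 reads in any library. Of the 14, 7 rose and 7 did not pass in LPS against control, with a median log2 change of 0.80, and 2 rose in LPS plus RSBD against control. The part of those cells in the levels of the members was not tested.

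Per length, the order of the members' mean levels differed between groups. In LPS plus RSBD lungs Ly6c2 was at 194 ± 59.6 (SD, n = 3) and Spp1 at 161 ± 72.3 TPM, followed by C1qa at 103 ± 46.6, C1qb at 99.5 ± 37.3, C1qc at 79.5 ± 38.8 and Ccr2 at 67.9 ± 20.1 TPM, and these neighbours did not differ beyond their spread. In LPS lungs Ly6c2 was highest at 271 ± 61.1 TPM, ahead of Spp1 at 196 ± 103 and Ccr2 at 106 ± 48.0 TPM, and then C1qb at 78.3 ± 23.8, C1qa at 73.6 ± 20.5 and C1qc at 58.6 ± 12.0 TPM. The LPS libraries overlapped between Ly6c2 and Spp1 and between Spp1 and Ccr2, while each Ly6c2 value was above each Ccr2 value. In control lungs Spp1 was highest at 383 ± 115 TPM, ahead of Ly6c2 at 114 ± 8.39, C1qb at 87.3 ± 39.4, C1qa at 85.1 ± 34.9, C1qc at 62.1 ± 30.0 and Ccr2 at 42.0 ± 8.19 TPM, and each Spp1 value was above each Ly6c2 value. Gpnmb, Cx3cr1 and Ms4a7 were between 6.75 and 27.6 TPM in group means, and Trem2 was lowest in each group, at 4.86 ± 1.53 in LPS plus RSBD, 6.95 ± 1.70 in LPS and 3.48 ± 1.11 TPM in control lungs.

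Setting the classes side by side, each gene's log2 CPM was centred on its mean over the 9 libraries and averaged within a class. Monocyte genes were at -0.24, 0.31 and 0.10 in LPS plus RSBD, 0.77, 0.49 and 0.22 in LPS and -0.35, -0.71 and -0.59 in control libraries. LPS plus RSBD and LPS libraries were thus all above the controls, LPS plus RSBD 1 by a narrow margin, while Cx3cr1 alone overlapped between LPS plus RSBD and control. C1q macrophage genes were at -0.04, 0.97 and -0.12 in LPS plus RSBD, -0.63, 0.39 and -0.01 in LPS and -0.78, -0.28 and 0.49 in control libraries, with overlap throughout. Lipid-associated genes were at -0.51, -0.32 and 0.02 in LPS plus RSBD, -0.28, 1.13 and 0.09 in LPS and -0.15, -0.15 and 0.18 in control libraries, and that of LPS 2 was the one value beyond the rest. The count ratio of Ccr2 to C1qa was 2.93, 1.82 and 5.64 in LPS plus RSBD, 13.5, 4.22 and 4.06 in LPS and 4.23, 2.14 and 1.37 in control libraries, so LPS and control overlapped, at LPS 2, LPS 3 and control 1.

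**Figure D3:**
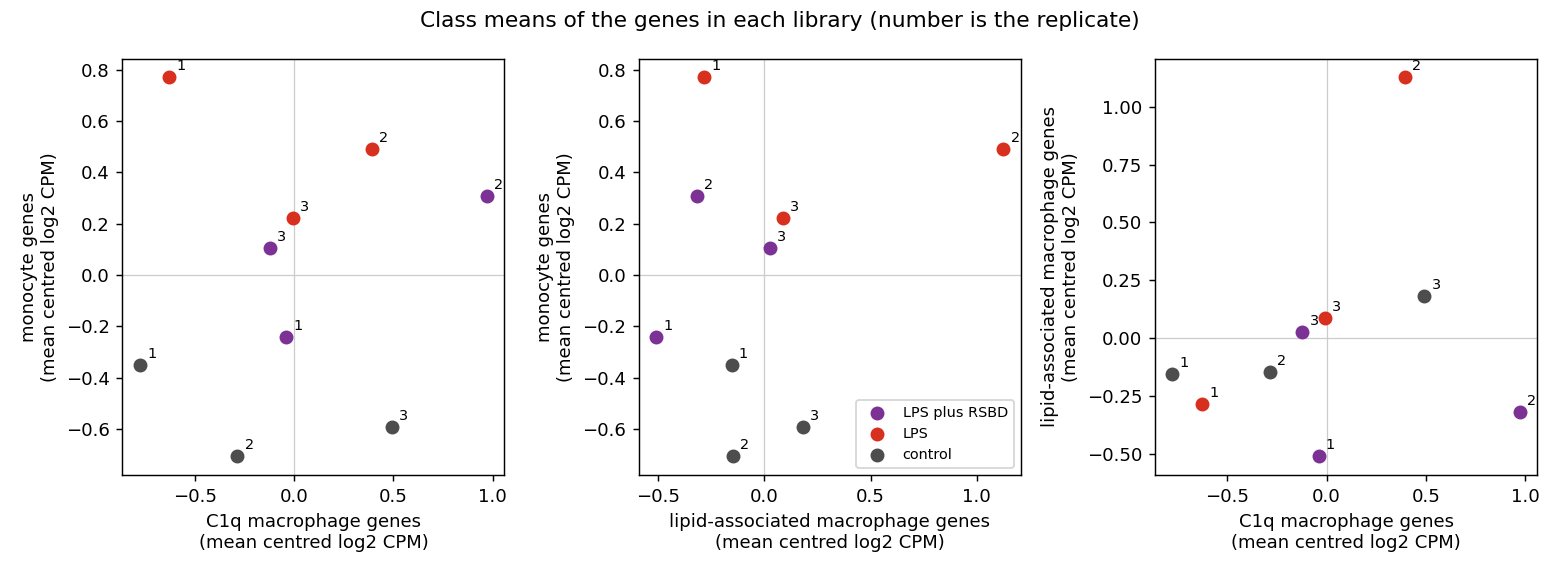
Class means of centred log2 CPM in each library, with monocyte genes against C1q macrophage genes (left), monocyte genes against lipid-associated genes (middle) and lipid-associated genes against C1q macrophage genes (right); numbers are replicates. On the monocyte axis LPS plus RSBD lies at -0.24 to 0.31 and LPS at 0.22 to 0.77, which overlap, and both lie above the controls at -0.71 to -0.35, while all groups overlap on the C1q axis.

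Likeness between genes was measured as the mean absolute difference of centred log2 CPM over the 9 libraries, a description that also reflects group differences. This difference also tends to be larger for genes that vary more. The mean absolute value of centred log2 CPM was 0.66 for Spp1, 0.69 for Gpnmb, 0.46 for Trem2 and 0.55 for Ly6c2. C1qa and C1qb were the closest pair (0.06), followed by C1qa with C1qc (0.09) and C1qb with C1qc (0.10). Trem2 was nearer to Ly6c2 (0.18) than to Gpnmb (0.47) or Spp1 (0.87), and Spp1 was at least 0.79 from every other member. Among 12396 genes that averaged 5 CPM or more, Ccr2 was most like Fgr, a Src-family kinase gene of myeloid cells (0.13), and Tgfbi, a secreted matrix protein gene (0.13). For Ly6c2 they were Hmgb2, a chromatin protein gene (0.12), and Arhgdib, a gene of blood cells (0.13). Cx3cr1 was most like Stat4, a transcription factor gene of NK and T cells (0.08), and Aim2, a DNA sensor gene (0.08). The nearest 2 genes to each C1q chain were the other chains, and those nearest to Ms4a7 were Slamf8, a myeloid surface receptor gene (0.18), and C1qc (0.21). Trem2 was nearest to Cyba, a subunit gene of the phagocyte NADPH oxidase (0.10), and Sh3bgrl3 (0.13). Gpnmb was nearest to Ctsk, a lysosomal protease gene (0.31), and B3gnt7 (0.37), and Spp1 to Slc38a4, an amino acid transporter gene (0.35), and Adora2b, an adenosine receptor gene (0.35). For comparison, the median over those genes was 0.55 for Ccr2 and 0.67 for Spp1. It was lowest for Cx3cr1 (0.28), so its small differences are to be read against that, and highest for Gpnmb (0.71).

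**Figure D4:**
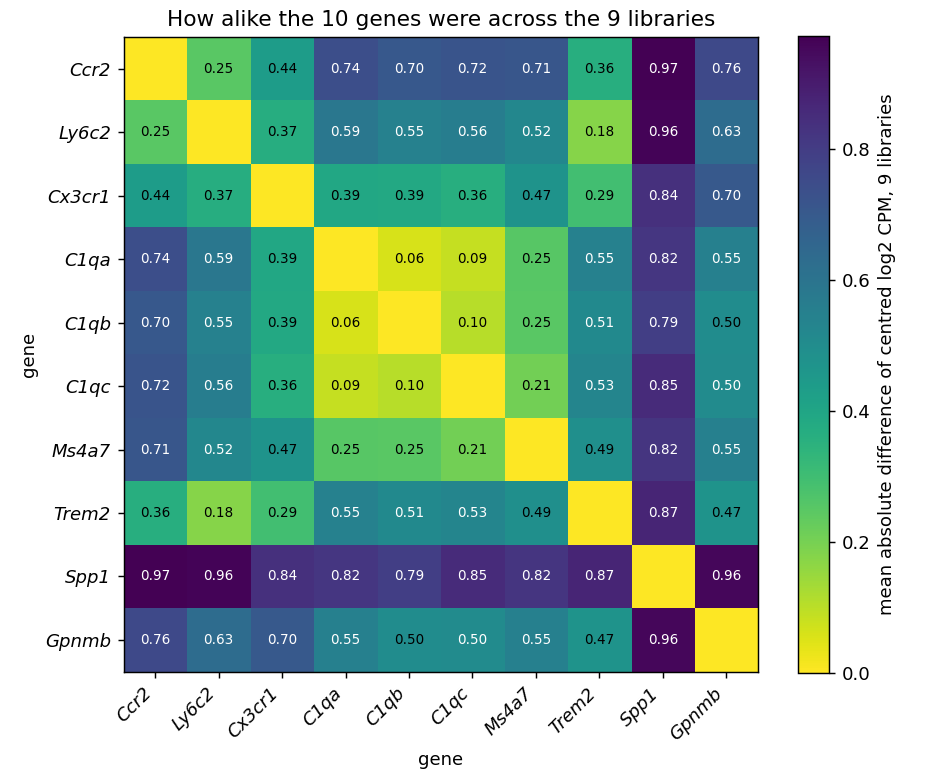
Mean absolute difference of centred log2 CPM over the 9 libraries for each pair of the 10 genes (colour and number; lower is more alike). The C1q chains form the closest block at 0.06 to 0.10, and Spp1 is at 0.79 or more from all others.

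Ligands and growth factors that draw or maintain these cells were measured from a list. Ccl2, the main ligand of Ccr2, was at 1.78, 7.23 and 1.78 CPM in LPS plus RSBD, 0.780, 6.47 and 2.29 CPM in LPS and 2.36, 3.92 and 5.09 CPM in control libraries, with overlap between all groups. None of the 8 genes Ccl2, Ccl7, Ccl8, Ccl12, Cx3cl1, Csf1, Il34 and Csf2 passed in any comparison in edgeR. Their log2 fold changes in LPS against control had a median of -0.17 and that of Ccl2 was -0.25 ± 0.76 (edgeR adjusted p = 0.850). Of the other Ccr2 ligands, Ccl7 gave -0.07 ± 0.90, Ccl8 0.52 ± 0.61 and Ccl12 0.83 ± 0.39, and the Cx3cr1 ligand Cx3cl1 gave -0.18 ± 0.21. Between LPS plus RSBD and LPS, Ccl8 was at 0.93 ± 0.60 and Cx3cl1 at 0.41 ± 0.21 (edgeR adjusted p = 0.665 and 0.581).

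Of 9 other classical monocyte genes, 3 rose and 6 did not pass in LPS against control, with a median log2 change of 1.23. Ms4a4c, a membrane protein gene of the same family as Ms4a7, ran from 18.0 to 39.8 CPM in LPS plus RSBD, 27.1 to 33.8 CPM in LPS and 7.61 to 8.62 CPM in control libraries, with both LPS groups above all controls. It rose by 1.91 ± 0.25 in LPS against control (edgeR adjusted p = 0.00326) and by 1.78 ± 0.25 in LPS plus RSBD against control (edgeR adjusted p = 0.0109). Plac8 rose by 2.15 ± 0.40 and Ms4a6c by 1.52 ± 0.37 in LPS against control (edgeR adjusted p = 0.0116 and 0.026). Of the 6 that did not pass, F13a1 gave 0.41 ± 0.43, Vcan 1.31 ± 0.57, Chil3 1.08 ± 0.36 and Fn1 0.48 ± 0.20 (edgeR adjusted p = 0.544, 0.141, 0.0674 and 0.122). In LPS plus RSBD against control 1 of the 9 rose and 8 did not pass, with a median of 0.32. There F13a1 gave -0.33 ± 0.43 and Chil3 -0.04 ± 0.36. Of 7 other non-classical monocyte genes, 2 rose, Spn, the sialoglycoprotein CD43, by 1.06 ± 0.14 and Treml4 by 1.24 ± 0.34 (edgeR adjusted p = 0.00316 and 0.0364). Spn also rose in LPS plus RSBD against control, by 0.89 ± 0.14 (edgeR adjusted p = 0.0136).

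Of 15 other interstitial macrophage genes, 5 rose and 10 did not pass in LPS against control, with a median of 0.23. Cd68, a lysosomal glycoprotein, rose by 1.44 ± 0.18, Csf1r, the receptor for macrophage colony-stimulating factor, by 0.62 ± 0.14, and Mrc1, the mannose receptor, by 0.63 ± 0.15 (edgeR adjusted p = 0.00304, 0.0193 and 0.0204). The other 2 were Adgre1, the F4/80 antigen, and Pf4, which platelets also make. Among those that did not pass, the log2 fold change was -0.06 ± 0.24 for Lyve1, 0.30 ± 0.71 for Folr2 and -0.41 ± 0.44 for Cd163. In the same comparison 7 of 14 alveolar macrophage genes rose, and which macrophages the rising genes of this list came from was not tested.

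Of 13 other lipid-associated macrophage genes, 4 rose and 9 did not pass in LPS against control, with a median of 0.30. Lgals3, galectin 3, rose by 0.73 ± 0.16, Ctsd, the protease cathepsin D, by 0.70 ± 0.19, and Tyrobp, the signalling adaptor of Trem2, by 1.28 ± 0.30 (edgeR adjusted p = 0.0160, 0.0352 and 0.0249), and the fourth was the macrophage elastase Mmp12. Tyrobp is shared by many myeloid and NK receptors. It measured 67.2, 71.9 and 144 CPM in LPS plus RSBD, 145, 193 and 126 CPM in LPS and 76.2, 49.9 and 64.9 CPM in control libraries. Cd44, a receptor for osteopontin, rose by 0.72 ± 0.14 (edgeR adjusted p = 0.00954), while the integrin subunits Itgav, Itgb3 and Itga9 did not pass. Partners of C1q in the complement pathway, C1ra, C1s1, C2, C3, C4b and the inhibitor Serping1, passed in 0 of 6 cases in each comparison, with medians of -0.07 in LPS against control and 0.36 in LPS plus RSBD against LPS. Across these lists none passed in LPS plus RSBD against LPS. Other calls in LPS plus RSBD against control were Cd68 by 0.81 ± 0.18 and Mrc1 by 0.62 ± 0.14 (edgeR adjusted p = 0.0393 and 0.0478).

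**Figure D5:**
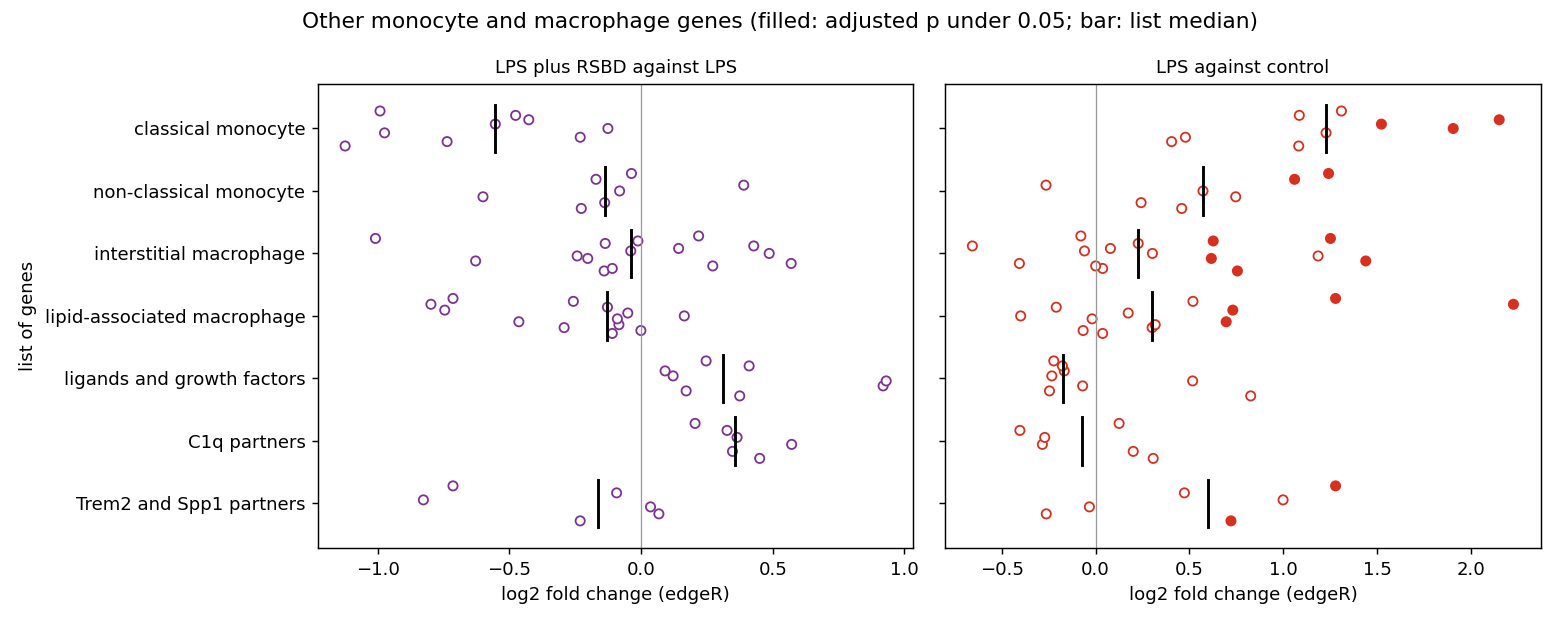
Log2 fold change (x axis) of the other genes of each list in LPS plus RSBD against LPS (left) and LPS against control (right); each point is a gene, filled at an edgeR adjusted p under 0.05, and the bar is the list median. Classical monocyte genes have a median of -0.55 at left and 1.23 at right, with no filled point at left.

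Beside these values, genes of other immune cells differed between the same libraries. The summed level of 9 neutrophil genes was 569 to 3220 CPM in LPS plus RSBD, 2450 to 6764 CPM in LPS and 646 to 2050 CPM in control libraries, and 2 of 9 rose in LPS against control, Ngp and Camp. For 8 cell cycle genes it was 152 to 260 CPM in LPS plus RSBD, 200 to 218 CPM in LPS and 116 to 149 CPM in control libraries, with 4 of 8 rising. Dendritic cell genes summed to 155 to 195 CPM in LPS plus RSBD, 156 to 176 CPM in LPS and 189 to 199 CPM in control libraries, where 2 of 7 rose, Ccr7 and Flt3, and 2 fell, Clec9a and Zbtb46. T cell genes summed to 106 to 240 CPM in LPS plus RSBD, 116 to 145 CPM in LPS and 98.0 to 106 CPM in control libraries, and 0 of 6 passed in edgeR. No gene of these lists was at 0 reads in any library, and the part of these cells in the levels of the members was not tested.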

How the data were processed

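Lung RNA in 9 libraries was sequenced as strand-specific, mRNA-enriched paired-end libraries with reads of 150 bases, per the labels' protocols. The submitters' processing notes name HISAT2 2.2.1, fastp 0.23.2, DESeq2 1.38.3 and StringTie 2.2.0 and the build GRCm38 (mm10), without role or order. The tool that made the counts is not given in the sources used here. Estimated counts (expected counts) per gene, whole numbers throughout, and TPM values were deposited by the authors for the same genes. Columns were matched to titles by name, RS to RSBD.

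Counts were fitted in R 4.3.3 with edgeR 4.0.16 (filterByExpr with a minimum count of 10 and a minimum total of 15, TMM, robust quasi-likelihood, group as the factor, all 9 libraries), with 2-sided tests, Benjamini-Hochberg adjustment over 15636 genes and a threshold of 0.05. The SE of a fold change (log2) had a median of 0.15 over all genes. CPM are TMM-scaled, and log2 CPM used a prior count of 2. The SE is the absolute log2 fold change divided by the square root of the F statistic of the quasi-likelihood test. Intervals are t-based from that SE. The fit was tested on simulated counts. Alternatives were DESeq2 1.42.0, RLE scaling, no filter, limma 3.58.1 on log2 TPM with pseudocounts of 1 and 0.1, both compared groups alone, a replicate block and leaving out each library. Sequences were aligned with Biopython 1.88, and shared runs were sought in GENCODE M21 transcripts.

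The members and lists were chosen with earlier results of these data known. Beyond the members the text names up to 3 called genes per list and comparison by smallest p, the receptor ligands, Tyrobp, Csf1r and the 2 genes most like each member. A few list genes (F13a1, Vcan, Chil3, Fn1, Lyve1, Folr2, Cd163, Adgre1, Pf4, Mmp12, Zbtb46, the integrins) were chosen after their values were seen. Replicates of a group differed by more than counting noise, with a chi-square per degree of freedom of 26.9 or more, so none was merged. A few results on other genes and motifs are not reported here.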

Additional observations from a re-analysis of the deposited data

How the results depend on the processing

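Over the 3 comparisons and all alternatives, 449 of the fold changes of single members kept their direction and side of the threshold, 7 lost and 7 gained a call, and 20 changed sign, none of which was called. With Ly6c1 and Ly6c2 summed, Ly6c2 in LPS plus RSBD against control turned to -0.17. The other sign changes came from leaving out a library. In LPS against control C1qa ranged from -0.32 to 0.27, C1qb from -0.30 to 0.37, C1qc from -0.20 to 0.48 and Ms4a7 from -0.018 to 0.86. In LPS plus RSBD against LPS C1qb ranged from -0.034 to 0.59, C1qc from -0.064 to 0.62, Ms4a7 from -0.18 to 0.73 and Spp1 from -0.69 to 0.27, and in LPS plus RSBD against control C1qa ranged from -0.062 to 0.72, C1qb from -0.063 to 0.69, C1qc from -0.020 to 0.89 and Gpnmb from -0.38 to 0.56. Members called with a library left out numbered 1 (without control 2) to 4 in LPS against control, 0 in LPS plus RSBD against LPS and 0 to 1 in LPS plus RSBD against control, where DESeq2 called 2. All genes called with a library left out numbered 786 (without LPS 2) to 2870 in LPS against control, 0 to 4 (4 without control 1, 2 without control 2) in LPS plus RSBD against LPS and 94 (without control 2) to 961 (without LPS 1) in LPS plus RSBD against control, beside 2723, 0 and 578 with all libraries. In LPS against control the count was 892 without control 2, 999 without control 3 and 1631 without LPS 3, and in LPS plus RSBD against control 97 without LPS plus RSBD 2, 118 without control 3, 240 without control 1, 311 without LPS plus RSBD 1 and 342 without LPS 2. In LPS plus RSBD against LPS, DESeq2 called 153 genes, limma 1 at either pseudocount and the fit of both groups alone 1. In LPS plus RSBD against control DESeq2 called 1699, limma 245 (pseudocount 1) and 238 (pseudocount 0.1) and the replicate block 240. Limma with a pseudocount of 1 split its calls into 701 higher and 1303 lower in LPS against control, beside 1374 and 1349, and 79 and 166 in LPS plus RSBD against control, beside 296 and 282. The cause was not tested. Libraries with the same replicate number share only that number. Deviations of same-numbered libraries correlated at -0.21 to 0.12, and the best match had the same number in 5 of 18 cases, and with the replicate block 3, 0 and 0 members were called. The 3 libraries per group limit the precision of these fold changes, as the width of the intervals of the C1q chains shows.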

Other observations

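The C1q genes lie in a row on chromosome 4, from 136880129 to 136898803 on mm10, and the nearest tested gene on either side, past the untested Epha8 on one, was lower in LPS than in control libraries. Ephb2, an ephrin receptor gene on one side, averaged 2.37 CPM in LPS plus RSBD, 1.53 CPM in LPS and 3.64 CPM in control libraries, and fell by 1.25 in LPS against control (edgeR adjusted p = 0.0383). Zbtb40, a zinc finger gene on the other side, averaged 16.6 CPM in LPS plus RSBD, 17.3 CPM in LPS and 24.0 CPM in control libraries, and fell by 0.48 (edgeR adjusted p = 0.0407). These neighbours were chosen by position after the data were seen, and whether they differ from the members was not tested.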
